A study of Mus musculus with 6 samples.

Results

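The 47 genes described here encode the Notch receptors and their ligands, the proteins that modify and transmit the Notch signal, the basic helix-loop-helix (bHLH) factors that Notch holds in check, the ID inhibitors of those factors, and a small set of neural progenitor and Dlx homeobox genes. The list was made by gene name, and each gene was measured by the array row that bears its symbol alone, or by the row with the highest mean over the 6 arrays where a gene had several. Of the 19938 gene symbols measured in this way, these 47 were represented by 49 rows, with a second row each for Rbpj and Maml2. The arrays compared Neuro 2A (N2A) cells, a mouse neuroblastoma line, that had received, by transient transfection, either an expression vector for a short hairpin RNA directed against the class III POU transcription factor gene Pou3f3 (knockdown, n = 3) or a non-targeting vector (control, n = 3). RNA was taken 2.5 days after transfection, and no selection or sorting step is named for these cells, so each value is an average over all cells in the well, of 1 line. Which Pou3f3 hairpin was used is not given. All levels are log2 array intensities, all differences are knockdown minus control on that scale, and levels are not compared between genes because each row has its own probes.

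In Notch signalling, a transmembrane ligand of the Delta or Jagged family on a cell binds a Notch receptor on its neighbour, and successive cleavages free the intracellular part of the receptor. That fragment enters the nucleus, where it joins the DNA-binding protein RBPJ and a Mastermind coactivator and switches on Hes and Hey genes, whose products are bHLH repressors. In the developing nervous system these repressors keep proneural genes such as Neurog2 low and so maintain progenitors, while proneural factors pair with E proteins on E boxes and turn on ligands and neuronal genes. ID proteins lack a DNA-binding region and sequester E proteins.

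Promoter windows are given for a receptor, a ligand, a receptor-modifying enzyme, a Notch target and an ID gene to which the results below return. They show the DNA that such factors could meet in these genes. Each holds the 250 bases upstream of a RefSeq transcription start (GRCm38.p6, read 5′ to 3′ on the strand of the gene). Capitals mark matches, on either strand, to the RBPJ core TGGGAA, the E box CANNTG and the POU octamer ATGCAAAT, and capitals run together where matches overlap.
Notch2, chr3:98013288-98013537, plus strand: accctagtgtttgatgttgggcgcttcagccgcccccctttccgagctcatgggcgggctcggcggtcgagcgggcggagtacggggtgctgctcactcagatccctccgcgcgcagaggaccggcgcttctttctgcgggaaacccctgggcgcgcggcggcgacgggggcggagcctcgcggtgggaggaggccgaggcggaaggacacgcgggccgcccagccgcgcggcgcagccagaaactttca
Dll1, chr17:15375824-15376073, minus strand: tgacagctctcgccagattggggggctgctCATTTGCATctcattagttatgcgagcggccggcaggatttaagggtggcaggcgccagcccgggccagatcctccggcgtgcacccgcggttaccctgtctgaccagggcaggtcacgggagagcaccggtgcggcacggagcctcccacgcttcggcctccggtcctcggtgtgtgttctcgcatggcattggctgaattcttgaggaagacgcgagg
Lfng, chr5:140607091-140607340, plus strand: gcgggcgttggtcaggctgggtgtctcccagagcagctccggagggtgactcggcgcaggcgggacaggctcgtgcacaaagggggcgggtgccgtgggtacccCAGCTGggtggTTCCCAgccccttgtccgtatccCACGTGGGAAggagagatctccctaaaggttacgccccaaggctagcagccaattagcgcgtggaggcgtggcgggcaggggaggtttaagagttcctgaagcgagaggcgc
Hey2, chr10:30842784-30843033, minus strand: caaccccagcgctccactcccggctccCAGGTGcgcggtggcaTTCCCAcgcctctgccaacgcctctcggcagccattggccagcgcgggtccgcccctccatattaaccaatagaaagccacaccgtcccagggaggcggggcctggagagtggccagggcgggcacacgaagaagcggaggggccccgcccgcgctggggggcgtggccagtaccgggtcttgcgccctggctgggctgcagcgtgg
Id2, chr12:25096093-25096342, minus strand: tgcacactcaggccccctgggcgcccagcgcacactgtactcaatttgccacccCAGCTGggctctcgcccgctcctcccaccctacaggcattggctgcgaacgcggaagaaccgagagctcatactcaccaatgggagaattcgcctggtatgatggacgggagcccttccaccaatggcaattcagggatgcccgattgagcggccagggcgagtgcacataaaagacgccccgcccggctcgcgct

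Lfng held 2 RBPJ cores, 1 of which overlapped an E box, and Hey2 held 1 RBPJ core. The window of Dll1 held an octamer that overlapped an E box, and was chosen for display because it held the octamer. That of Id2 held 1 E box, and none of these motifs was found in that of Notch2. Promoter sequences were found for 40 of the 47 genes, which had 51 start sites. The RBPJ core was present in 21.6% of these 51 windows and in 21.6% of all 32851 windows of this length, the E box in 60.8% and 66.2%, the N box CACNAG, a sequence that Hes proteins bind, in 39.2% and 36.7%, and the octamer in 5.88% and 1.60%. The 3 windows with an octamer belonged to Dll1, Nrarp and Neurog1. A match is a description of the sequence and not evidence of binding.

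The targeted gene Pou3f3 stood at 8.37, 8.30 and 8.47 on the control arrays and at 8.20, 8.09 and 8.35 on the knockdown arrays, lower in each of the 3 pairs of arrays with the same replicate number but with overlapping groups. The difference of -0.16 ± 0.08 (SE), a level 10.8% lower, missed the threshold (limma adjusted p = 0.303, or 0.0880 in the paired fit described below, under the fold cut-off). A two-sided exact permutation test gave p = 0.2, the design allowing no value under 0.1. The study also measured Pou3f3 by qRT-PCR after such a transfection. It reports a larger reduction than that of the array row, at a later time and on a measure unlike an array row.

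None of the 47 genes changed between control and knockdown cells by the thresholds used here, which were an adjusted p below 0.1 together with a 1.3-fold difference, or 0.38 on the log2 scale (limma, Benjamini-Hochberg adjustment over 21789 rows). The same thresholds called 1.99% of all rows. The largest differences were those of Id2 (-0.48) and Lfng (0.37). Without the fold cut-off 2 genes passed, Notch2 and Lfng, both higher in knockdown cells, which is 4.26% of the members beside 4.45% of all rows. An unadjusted p under 0.05 was found for 13 members (27.7%) and for 19.9% of all rows. In 7 genes every knockdown array lay above every control array (14.9%, beside 10.9% of all rows), and in 8 genes every knockdown array lay below (17.0%, beside 15.1%). These counts depended on the scaling, being 12 and 0 when each array was centred on the median of the whole table, and 9 and 5 after cyclic loess. Of the 15 genes that lay apart in the deposited values, 6 did so in the same direction under all 4 scalings (as deposited, centred on the median of rows with 1 symbol, centred on the whole table, and cyclic loess), and these were Notch2, Lfng, Tcf12, Msi1, Pax6 and Dlx2, all higher in knockdown cells. The shares of all rows that lay apart under the other scalings, or under all 4, were not counted, so these numbers have no background. Centring on the whole table moved the median of all rows from -0.03 to 0.02. As no member lay apart lower with centring on the whole table, only genes higher in knockdown cells could remain. Below, statements on overlap refer to the deposited values unless a scaling is named. The median difference over the 47 genes was -0.05, with 27 below 0 and 20 above, and the median over all rows was -0.03. Above 0 lay 27 genes, and below 0 lay 20, when arrays were centred in that way on the whole table. The sign of 11 members, all with differences under 0.06 in size, turned under centring on the whole table or cyclic loess (Dll3, Dll4, Mfng, Maml2, Numb, Hes6, Neurog1, Neurod2, Neurod6, Tcf3 and Tcf4). For 34 of the 47 genes the 95% confidence interval of the difference lay inside the fold cut-off on both sides, so that a change of 1.3-fold in either direction lay outside it, while for the other 13 the interval reached past the cut-off. In bulk samples such as these, a lower level in every cell and a smaller share of cells with the transcript cannot be told apart.

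Arrays with the same replicate number deviated together, so the comparison was repeated with the number as a block. In this paired fit Id2 passed both thresholds and was the sole member to do so, beside 2.50% of all rows. Without the fold cut-off 14 members passed (29.8%, beside 23.0% of all rows), of which 7 were higher (Notch2, Lfng, Maml1, Nes, Msi1, Pax6 and Dlx2) and 7 lower (Notch4, Jag2, Hey2, Heyl, Nhlh1, Id2 and Id3). In all 3 pairs 11 members were higher (23.4%, beside 23.8% of all rows) and 13 were lower (27.7%, beside 29.0%).

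**Figure D1:**
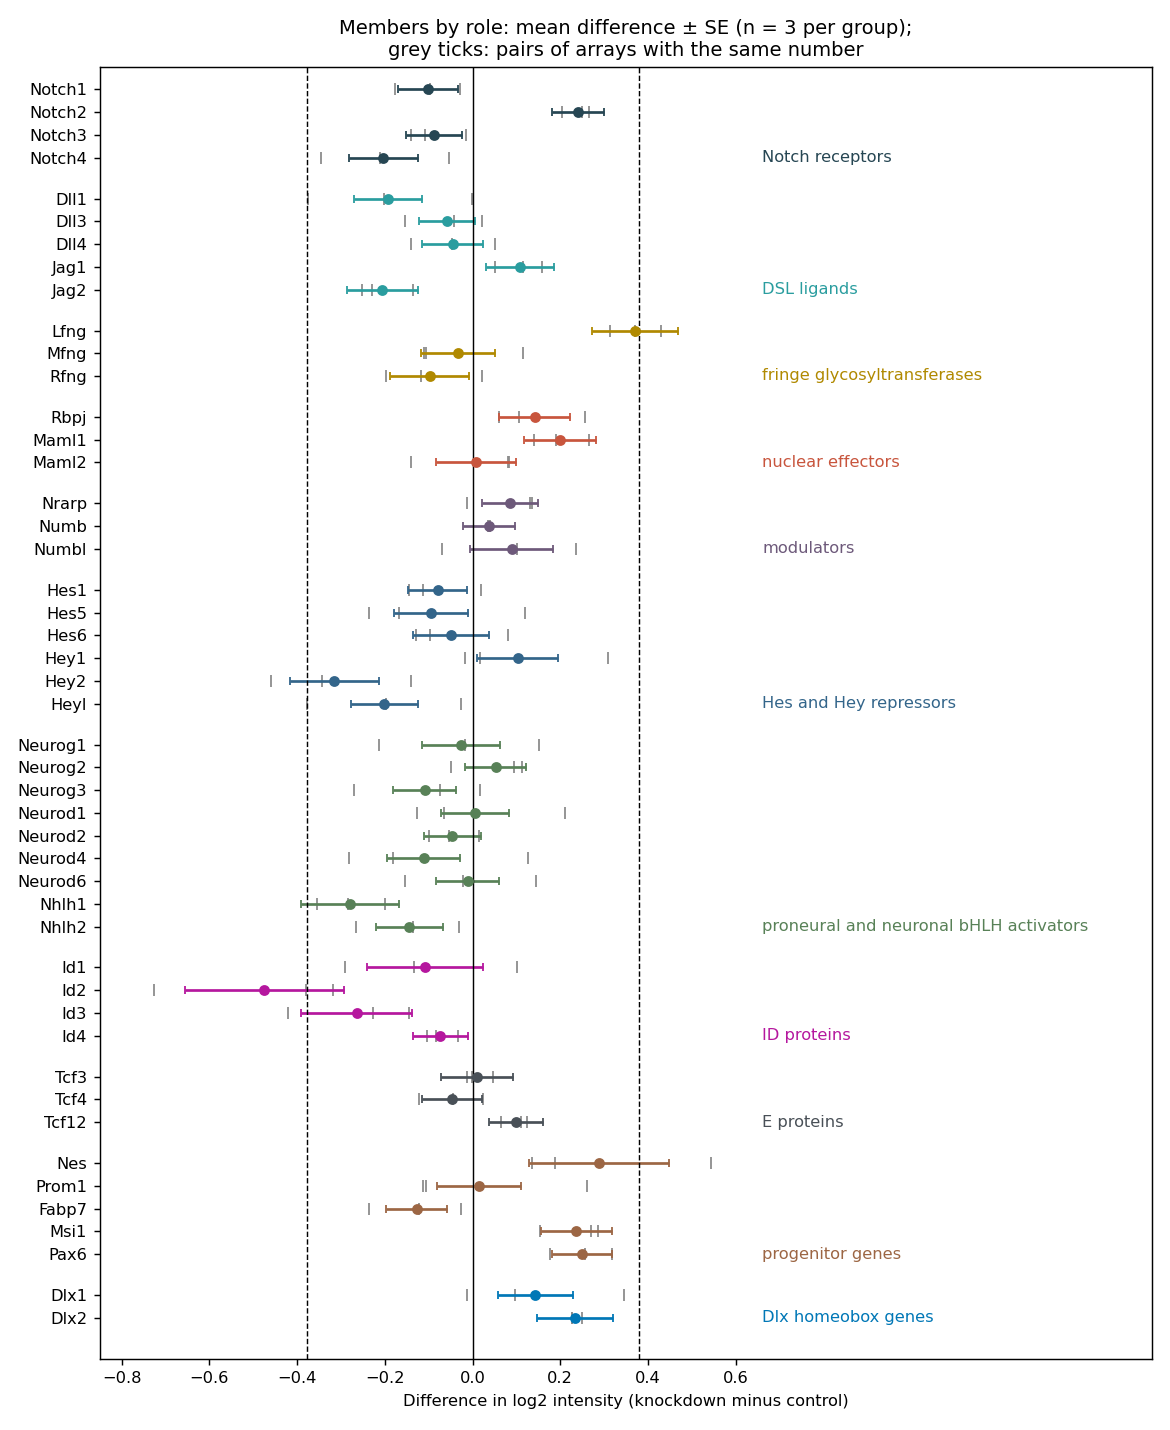
Difference in log2 intensity (knockdown minus control, horizontal axis) of the 47 genes, grouped by role and coloured by group. Points and bars are the mean difference ± SE (limma, n = 3 per group), grey ticks are the differences between arrays with the same replicate number, and dashed lines mark the 1.3-fold cut-off at 0.38 and -0.38. Id2 alone lies beyond a dashed line, and Lfng lies just inside the other.

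Among the 4 receptors, Notch2 differed in direction from the rest. Its levels were 10.16, 10.16 and 10.19 on the control arrays and 10.42, 10.42 and 10.39 on the knockdown arrays. The groups were wide apart beside their spread, since the SD was 0.02 in each. The difference was 0.24 ± 0.06 (SE, limma adjusted p = 0.0827), a fold of 1.18, and it ran from 0.23 to 0.25 when any 1 array was left out, at adjusted p from 0.127 to 0.264. Notch1, Notch3 and Notch4 lay lower in knockdown cells, and their groups did not overlap in the deposited values. With centring on the whole table the groups of all 3 overlapped, and after cyclic loess those of Notch4 alone lay apart. Notch4 stood at 8.24, 8.32 and 8.28 on the control arrays and at 8.03, 7.97 and 8.22 on the knockdown arrays, a difference of -0.20 ± 0.08 (adjusted p = 0.204). Notch1 and Notch3 differed by -0.10 and -0.09, at adjusted p = 0.431 and 0.459. The difference of Notch1 was -0.05 without knockdown replicate 2 or with centring on the whole table. All 4 receptors lay inside the central 80% of all rows of their class of level (described below). The median of all rows was 0.06 in the class of Notch2 and -0.08 in that of the others.

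Of the 5 ligands, 4 lay below 0 and Jag1 above, although 3 lay below 0 with centring on the whole table and 2 after cyclic loess. Jag2 had the largest difference, with 10.57, 10.66 and 10.74 on the control arrays and 10.31, 10.52 and 10.51 on the knockdown arrays. Its groups did not overlap and its difference was -0.21 ± 0.08 (SE, limma adjusted p = 0.209). Dll1, whose window shown above held the octamer, is a ligand made by differentiating neurons. It stood at 8.50, 8.43 and 8.30 against 8.12, 8.23 and 8.30. These groups were apart by the narrowest of margins, with the knockdown array of replicate 3 differing from its control by -0.00220, and the means differed by -0.19 ± 0.08 (adjusted p = 0.218). Nrarp and Neurog1, which also had a window with an octamer, differed by 0.08 and -0.03. Jag1, Dll3 and Dll4 lay between -0.06 and 0.11, with overlapping groups.

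The fringe enzymes add a sugar to the receptors and so shift their response between Delta and Jagged ligands. Lfng stood at 9.96, 10.15 and 10.26 on the control arrays and at 10.33, 10.58 and 10.58 on the knockdown arrays. Every knockdown array exceeded every control array, and the 3 pairs differed by 0.37, 0.43 and 0.31. The mean difference of 0.37 ± 0.10 (SE) is a 1.29-fold higher level at limma adjusted p = 0.0992, just short of the fold cut-off. Without knockdown replicate 1 the difference was 0.45 and Lfng was called (adjusted p = 0.0712). On leaving out any of the other 5 arrays it was 0.29 to 0.44 at adjusted p from 0.139 to 0.296, and after cyclic loess 0.32 at 0.113. Mfng and Rfng differed by -0.03 and -0.10, with overlapping groups.

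**Figure D2:**
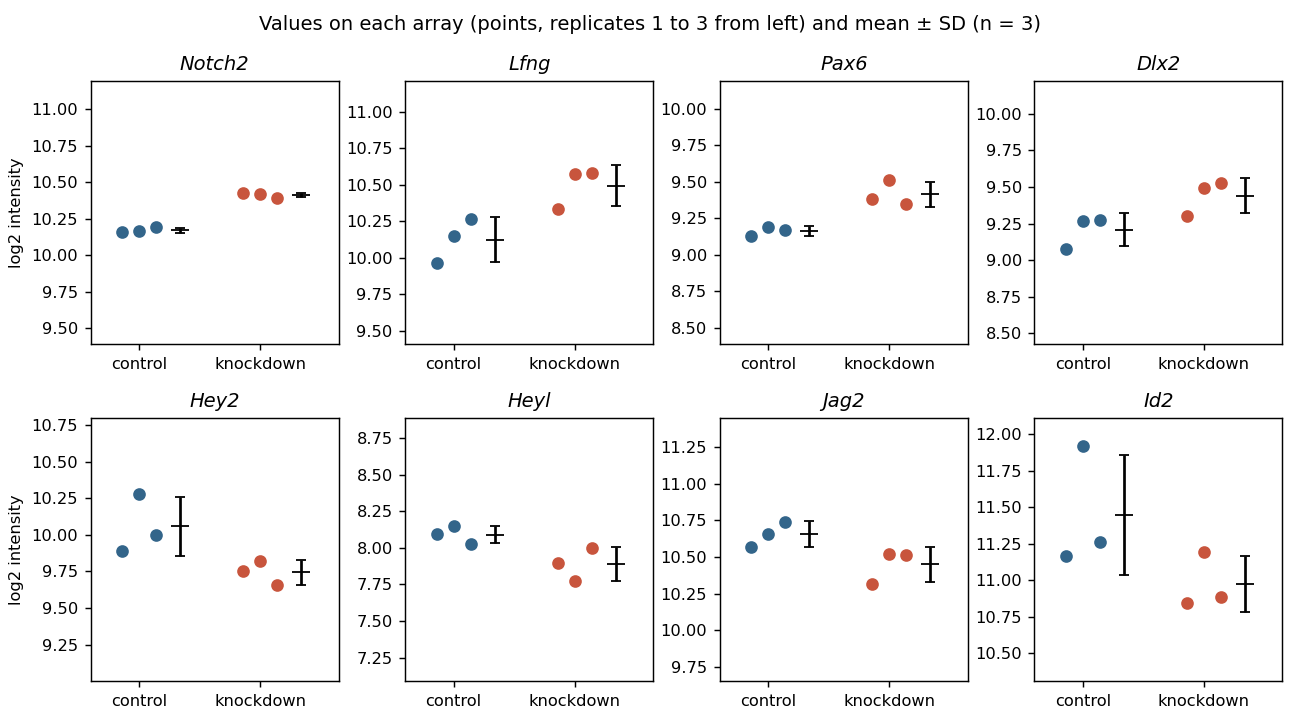
Log2 intensity on each array (vertical axes, all of the same span) of 8 genes of the Notch, Dlx, Pax and ID families in control (blue) and knockdown (red) cells; points are replicates 1 to 3 from left to right, and bars are means ± SD (n = 3). The groups lie apart for Notch2, Lfng, Pax6 and Dlx2, which were higher in knockdown cells, and for Hey2, Heyl and Jag2, which were lower, whereas knockdown replicate 2 of Id2 overlaps the control arrays.

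The 3 nuclear effectors and 3 modulators of the signal all lay above 0, except that Maml2 and Numb lay below 0 after cyclic loess (-0.0075 and -0.01), and none passed the test. Maml1, a Mastermind coactivator, stood at 9.23, 9.44 and 9.30 on the control arrays and 9.49, 9.63 and 9.44 on the knockdown arrays. The groups overlapped by a narrow margin and the difference was 0.20 ± 0.08 (SE, limma adjusted p = 0.224). Rbpj differed by 0.14 ± 0.08 (adjusted p = 0.355) on its row of higher level and by -0.05 on its second row, and Maml2 by 0.01 and -0.08 on its rows, so that the rows of these genes differed in sign or size without a call. Numb and Numbl, which restrain Notch receptors, differed by 0.04 and 0.09, and Nrarp, a feedback inhibitor that Notch induces, by 0.08. The groups of Numb did not overlap although its difference was small, as its SD was 0.02 in either group.

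Among the Hes and Hey repressors 5 of 6 lay below 0, with a median of -0.09 (4 of 6 and -0.04 with centring on the whole table). Hey2 stood at 9.89, 10.28 and 10.00 on the control arrays and at 9.75, 9.82 and 9.66 on the knockdown arrays. No array overlapped, but control replicate 2 lay above the other control arrays. The difference was -0.31 ± 0.10 (SE, limma adjusted p = 0.147), and it was -0.20 without control replicate 2. Without control replicate 1 it was -0.40 and Hey2 was called (adjusted p = 0.0782). Heyl stood at 8.09, 8.15 and 8.03 against 7.89, 7.77 and 8.00, again without overlap (difference -0.20 ± 0.08, adjusted p = 0.201). The levels of Hes1, the most widely used Notch target, were 7.41, 7.40 and 7.40 on the control arrays and 7.29, 7.26 and 7.41 on the knockdown arrays, a difference of -0.08 with a 95% confidence interval from -0.23 to 0.07. Hes5 and Hes6 differed by -0.09 and -0.05, and Hey1 by 0.10, with overlapping groups (adjusted p from 0.542 to 0.774).

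Of the 9 proneural and neuronal bHLH genes, 7 lay below 0 with a median of -0.05, but 4 lay below 0 with centring on the whole table or after cyclic loess, with medians of 0.0044 and 0.0086. No gene had groups that lay apart in the deposited values, while under other scalings Neurog2 (higher) or Nhlh2 (lower) did. Nhlh1, a factor of newly born neurons, had the largest difference, with 6.26, 6.06 and 6.33 on the control arrays and 6.06, 5.70 and 6.05 on the knockdown arrays. Knockdown replicate 2 was the lowest of the 6 arrays, and without it the difference of -0.28 ± 0.11 (SE, limma adjusted p = 0.211) was -0.16. Its relative Nhlh2 differed by -0.14 ± 0.08. The neurogenins Neurog1, Neurog2 and Neurog3 lay between -0.11 and 0.05, and the Neurod genes between -0.11 and 0.01. The 95% confidence intervals of all 7 Neurog and Neurod genes lay inside the fold cut-off.

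The 4 ID genes all lay below 0 under each of the 4 scalings, with a median of -0.19 in the deposited values and -0.14 with centring on the whole table. Their groups overlapped in the deposited values, and those of Id2 lay apart after cyclic loess or centring on the median of rows with 1 symbol. Id2 stood at 11.17, 11.92 and 11.26 on the control arrays and at 10.85, 11.19 and 10.88 on the knockdown arrays. Control replicate 2 was 0.71 above the mean of the other control arrays, and knockdown replicate 2 was likewise the highest of its group. The difference of -0.48 ± 0.18 (SE), a 1.39-fold lower level, did not pass the test without pairing (limma adjusted p = 0.200). The pairwise differences were -0.32, -0.73 and -0.38, and Id2 passed with the replicate block (adjusted p = 0.00746). When replicate 2 was left out of the paired fit the difference was -0.35, under the fold cut-off, at adjusted p = 0.00421. In the unpaired fit without control replicate 2 it was -0.24 (adjusted p = 0.404).

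Id3 stood at 8.35, 8.83 and 8.44 on the control arrays and at 8.12, 8.41 and 8.29 on the knockdown arrays, with replicate 2 again highest in each group. Its difference was -0.26 ± 0.13 (SE, limma adjusted p = 0.279), or -0.12 without control replicate 2 but with its knockdown partner kept. The pairs of Id3 differed by -0.23, -0.42 and -0.15. It was lower in all 3 pairs, with adjusted p = 0.0342 with the replicate block and a difference below the fold cut-off. Id1 differed by -0.11 ± 0.13 and by 0.04 without control replicate 2, which lay 0.43 above the mean of the other control arrays. That removal kept knockdown replicate 2, also the highest of its group, and the 3 pairs differed by 0.10, -0.29 and -0.13. Id4 differed by -0.07 ± 0.06, and control replicate 2 did not stand out for it. Among the E proteins that ID factors bind, the difference was 0.01 for Tcf3, -0.05 for Tcf4 and 0.10 for Tcf12, of which Tcf3 turned to -0.04 after cyclic loess and Tcf4 to 0.0031 with centring on the whole table, and no 95% confidence interval reached the fold cut-off. The groups of Tcf12 did not overlap (adjusted p = 0.391).

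**Figure D3:**
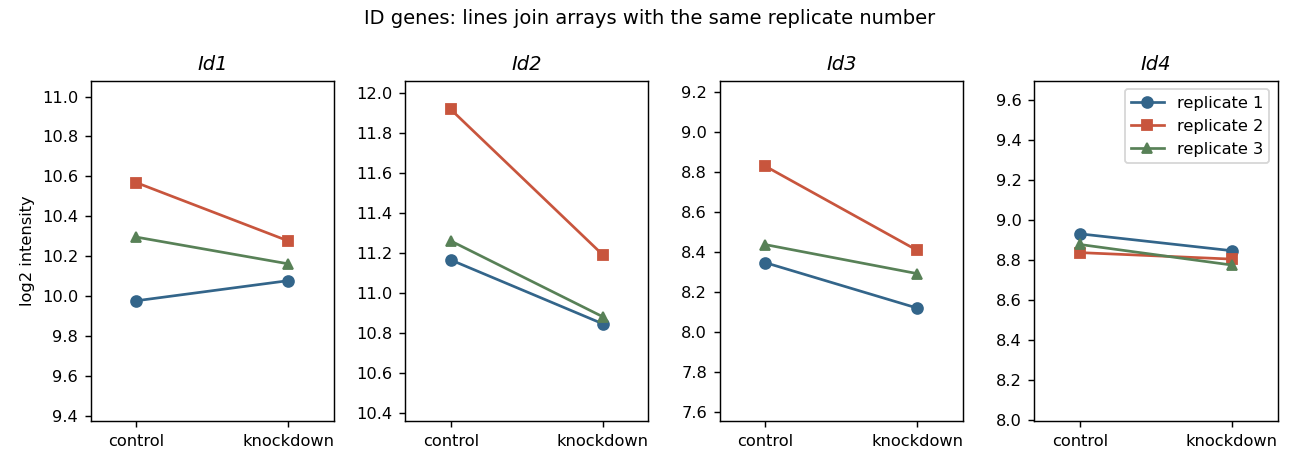
Log2 intensity (vertical axes, all of the same span) of the 4 ID genes in control and knockdown cells; lines join arrays with the same replicate number. Id2, Id3 and Id4 are lower in knockdown in all 3 pairs, Id4 by the least, and replicate 2 is the highest array of each group for Id1, Id2 and Id3.

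Of the 5 progenitor and 2 Dlx genes all but Fabp7 lay above 0, under each of the scalings tried, and none was called. Pax6, a homeodomain factor of neural progenitors, stood at 9.13, 9.19 and 9.17 on the control arrays and at 9.38, 9.51 and 9.35 on the knockdown arrays. The groups were well apart and the difference was 0.25 ± 0.07 (SE, limma adjusted p = 0.107). Msi1, an RNA-binding protein that represses translation of Numb, stood at 11.49, 11.67 and 11.70 against 11.78, 11.94 and 11.86, also without overlap (difference 0.24 ± 0.08, adjusted p = 0.163). Nes, which encodes the progenitor filament protein nestin, differed by 0.29 ± 0.16 (adjusted p = 0.337). Its knockdown replicate 2, at 9.54, was far above the other knockdown arrays at 8.86 and 9.06, and without it the difference was 0.10. The stem cell surface protein gene Prom1 differed by 0.01. Fabp7, a lipid-binding protein of radial glia, differed by -0.13 ± 0.07. Its groups lay apart in the deposited values and overlapped under the 3 other scalings, and the difference was -0.06 after cyclic loess and -0.08 without knockdown replicate 2 or with centring on the whole table.

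Dlx2, a homeobox gene of inhibitory neuron precursors, stood at 9.08, 9.27 and 9.28 on the control arrays and at 9.30, 9.50 and 9.53 on the knockdown arrays. The groups were separated by a narrow gap, and the differences within pairs, 0.23, 0.23 and 0.25, were nearly alike. The mean difference was 0.23 ± 0.09 (SE, limma adjusted p = 0.191). Its neighbour Dlx1 differed by 0.14 ± 0.09, with overlapping groups.

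When members were split at the median level of all rows, their median difference in each part lay close to that of all rows. Among 22 members below the median level of all rows (8.60), 17 lay below 0 with a median difference of -0.08, where the median over all rows in that range was -0.07. Among 25 members above it, 15 lay above 0 with a median of 0.04, where that over all rows was 0.04. The shares of all rows below and above 0 in these ranges were not counted. When all rows were split into 10 classes of level, 5 members lay above the central 80% of their class and 5 below, 10.6% on each side. Those above were Lfng, Nes, Msi1, Jag1 and Neurog2, and those below were Id2, Hey2, Jag2, Id3 and Nhlh1. Notch2 and Pax6 lay inside that range, although their spread between arrays was small. Within single classes, of 1 to 9 members, the median of the members departed from that of all rows in both directions. At levels from 9.51 to 10.26 it was -0.08 beside 0.07, and at levels from 11.82 to 14.69 it was 0.10 beside 0.01. The part of this level dependence in single differences was not tested.

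**Figure D4:**
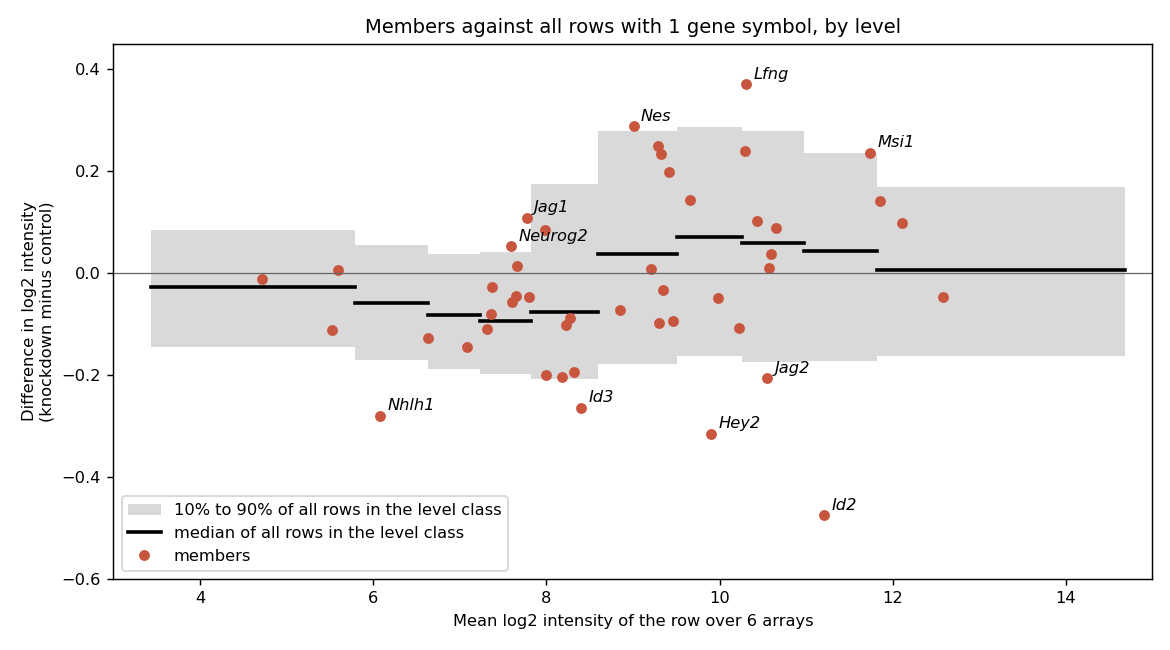
Difference in log2 intensity (knockdown minus control, vertical axis) of the 47 genes (red points) against the mean log2 intensity of their rows over the 6 arrays. Black lines are the median and grey bands the range from 10% to 90% of all rows with 1 gene symbol in 10 classes of level. The 10 members outside the bands are labelled, with Lfng the highest and Id2 the lowest.

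Other genes of the pathway and their relatives gave 2 calls among the 38 measured of 41 listed (5.26%, beside 1.99% of all rows). The calls were 1 in each direction, and the median was -0.02. Neurl1b, a ubiquitin ligase gene that promotes ligand uptake, stood at 9.85, 9.60 and 9.76 on the control arrays and at 10.18, 10.13 and 10.08 on the knockdown arrays. It rose by 0.39 ± 0.08 (SE, limma adjusted p = 0.0466) without overlap, whereas a second row of the gene differed by 0.22 ± 0.08 and was not called. Rbpjl, a paralogue of Rbpj expressed mainly in pancreas, stood at 8.97, 8.96 and 9.03 against 8.56, 8.52 and 8.63. It fell by 0.42 ± 0.06 (adjusted p = 0.0192), without overlap. The call of Neurl1b was lost when control array 2 or 3 or knockdown array 1 or 2 was left out (adjusted p = 0.181, 0.134, 0.102 and 0.154), and that of Rbpjl held on leaving out any 1 array. Both calls were lost when the fit took in all 35556 rows (adjusted p = 0.172 for Neurl1b and 0.105 for Rbpjl) or the variance filter was applied to them (0.309 and 0.290). The difference of Rbpjl fell short of the fold cut-off with centring on the whole table (-0.37), and that of Neurl1b after cyclic loess (0.34) or as the mean of its rows (0.30). Aph1b, a subunit of the gamma-secretase that cleaves Notch, differed by -0.30 ± 0.07 (adjusted p = 0.0771), below the fold cut-off, and was named after its value was seen. Of 33 other bHLH genes measured of 35 listed, none was called (1 had an unadjusted limma p under 0.05). Below 0 lay 27 of them, beside 12526 of all 21789 rows. Their median was -0.10 at a median level of 7.69, where all rows of level 7.23 to 7.82 had a median of -0.09. In 9 genes every knockdown array lay below every control array (27.3%, beside 15.1% of all rows), or in 1 after cyclic loess. The share of all rows apart after cyclic loess was not counted. After cyclic loess 23 lay below 0, with a median of -0.04. Bhlhe40 had the largest difference of these, -0.22 ± 0.12 (adjusted p = 0.318), and it was -0.09 without control replicate 2.

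Marker lists were read row by row, and since levels of different probes are not comparable and background was not examined, they do not by themselves settle the identity of the cells. The 9 neuroblastoma markers measured of 10 listed had mean levels from 10.66 (Gata3) to 13.76 (Stmn2). Of these, Dbh, the enzyme that makes noradrenaline, was called and fell by 1.17 (limma adjusted p = 0.00471). Gata3, a sympathetic lineage factor, and Chga, a secretory granule protein, differed by -0.33 and -0.35 with groups apart (adjusted p = 0.0484 and 0.0628), so that 3 of 9 passed without the fold cut-off, beside 4.45% of all rows. The 6 astrocyte markers ran from 6.68 to 7.49, all 6 lay below 0 with a median of -0.12 (5 of 6 after cyclic loess), and none was called. The 6 fibroblast markers ran from 4.94 to 8.80, with 5 below 0 and a median of -0.11, and 4 of 6 Schwann cell markers, S100b shared with the astrocyte list, ran from 4.52 to 9.53 with a median of -0.04. No gene of these 3 lists was called. The median level was 7.02 in the astrocyte list and 8.18 in the fibroblast list. All rows of level 6.64 to 7.23, around the first, had a median difference of -0.08, as did those of 7.82 to 8.60 around the second. The part of other cell types in the differences was not tested.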

How the data were processed

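The authors read the array files (Affymetrix GeneChip Mouse Gene 1.0 ST) with oligo, corrected the background by RMA, quantile normalised the arrays and summarised probes per gene. Values were deposited as log2 intensities, and quantile normalisation hides a change shared by most transcripts. The submitters' processing notes name RMA and limma without versions. Array medians ran from 7.90 to 8.01. Precision is limited by the small number of arrays.

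Gene names came from the platform annotation, which gave 1 symbol for 21789 of 35556 rows, several for 1621 and none for 12146. The Entrez identifiers of all 47 members matched RefSeq without a change of symbol. The 21789 rows were fitted in R 4.3.3 with limma 3.58.1 (lmFit, eBayes), two-sided, with Benjamini-Hochberg adjustment, with the study's thresholds (adjusted p below 0.1 and a 1.3-fold difference). The study's filter on low variance was left out so that every member had a value, and was tried as an alternative. The script was tested on simulated data. The study's methods call the replicates biological. They are of 1 line, so p-values measure the spread between its transfections.

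The labels number the replicates 1 to 3 in each group. Deviations from the group means correlated between control and knockdown arrays of the same number (r = 0.64, 0.31 and 0.29 across rows, which are not independent), and these numbers were taken to pair the arrays.

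The members, roles and other lists were chosen with earlier results of these data known. Named genes are members that were called, members whose groups did not overlap, the member with the largest difference of each role, called genes of the other lists or the one with the largest difference, and Pou3f3. Values of further members are given for completeness. Promoter sequences are those of RefSeq (GRCm38.p6).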

Additional observations from a re-analysis of the deposited data

How the results depend on the processing

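No member was called in the fit without pairing, nor under centring on the median of rows with 1 symbol, cyclic loess, a filter on low values, an intensity trend with a robust prior, the mean of a gene's rows, updated symbols, an adjusted p under 0.05, all 35556 rows or the variance filter on all rows. A single member was called with the replicate block (Id2), with the variance filter on rows with 1 symbol (Id2), with centring on the median of all rows (Lfng, 0.42), and without control replicate 1 (Hey2) or knockdown replicate 1 (Lfng), so leaving out 1 array gave 0 to 1. Of all rows, these settings called 2.50%, 4.98%, 2.74%, 2.8% and 2.06%, in the order given. Without the fold cut-off 2 members were called (4.45% of all rows), and 14 with the replicate block as well (23.0% of all rows). The paired fit without 1 pair called 0 to 2 members, beside 1.97% to 3.91% of all rows. The alternatives that pair and drop the fold cut-off, that leave out a pair, and that centre on all rows were chosen after seeing the data.

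The median of the members was -0.05, and it was 0.0138 with the variance filter on all rows (21 members), 0.0375 with the filter on low values (25 members), 0.00465 with centring on all rows and -0.00749 after cyclic loess. On leaving out 1 array it ran from -0.0554 to -0.0136. Centring on all rows moved the median of all rows from -0.03 to 0.02.

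Among the other Notch pathway genes and their relatives 2 were called. This was 1 with centring on all rows (Neurl1b), after cyclic loess or with the mean of a gene's rows (Rbpjl in both). It was 0 with all rows or with the variance filter on all rows. With the replicate block and no fold cut-off it was 10 (26.3%, beside 23.0% of all rows). Leaving out 1 array gave 1 to 3, where 0.675% to 2.8% of all rows were called. Of the other bHLH genes, 4 were called with the replicate block and no fold cut-off (Olig1, Olig2, Tcf15 and Twist1) and 0 otherwise. These 4 were 12.1% of the list, beside 23.0% of all rows. The differences of Numb after cyclic loess (-0.0121) and Numbl without control replicate 1 (-0.0123) reversed, and on leaving out 1 array Numbl ran from -0.0123 to 0.168. The cause of these changes was not tested. Pou3f3 lay between -0.23 and -0.10 on leaving out 1 array. Over all 21789 rows 433 were called (284 higher, 149 lower). The split was 491 and 105 with centring on all rows and 232 and 193 after cyclic loess. The number called was 12 with the variance filter on all rows, 28 with all rows, 161, 219 and 147 without control replicates 2 and 3 and knockdown replicate 2, and 5005 with the replicate block and no fold cut-off.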
